A study of Botryllus schlosseri with 12 samples.

Results

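Among the vascular regulators that the study named in injured colonies of Botryllus schlosseri, 2 contigs of the deposited table carry a gene name from a phylogenetic tree. TRINITY_DN13206_c4_g12_i1.p1 groups with the receptor TIE1/2, and TRINITY_DN16425_c0_g1_i6.p1 groups with the transcription factor Sox7/17/18. These 2 rows were taken by their identifiers from the 32561 contigs of the table, and both were among the 31383 contigs with enough counts to be tested. The identifier in the TIE1/2 tree stops before the number of the reading frame, and the row used is the only row of that Trinity gene. The contig that the study labelled Ets-1, a further vascular regulator, was not used here, since its identifier matched no row.

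The samples were 12 subclones of a single isogenic strain, grown apart and all operated at the same stage of the budding cycle, and each gave 1 library. All zooids and buds were removed from each, and what was left, the vasculature with the tunic, the blood cells and often, by the study's account, small residues of zooid tissue, was either frozen at once (0 h post-injury, hpi) or kept in filtered seawater and frozen at 6, 18 or 24 hpi, with 3 libraries per time point. All 4 groups therefore carry the same injury, and every change below is relative to colonies frozen right after surgery, not to intact ones. The labels call the samples colonies, and markers of cell types were not analysed here, since the rows have no gene names. In such bulk samples a change in the number of cells that express a gene and a change of RNA per cell cannot be told apart.

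In vertebrates, TIE1 and TIE2 are receptor tyrosine kinases of endothelial cells. TIE2 binds angiopoietins, secreted ligands that stabilise or loosen vessels, while TIE1 modulates its signal. SOX7, SOX17 and SOX18 form the SoxF group of HMG-box transcription factors, which act in the specification of endothelium and in the growth of vessels. Botryllus vessels are not lined by an endothelium but by an epithelium derived from the epidermis, and the roles of both genes given here are those known in vertebrates. No sequence of either contig was used here, and neither was placed on a chromosome, because the gene table at hand for the species cannot be matched to contigs assembled without a genome.

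The values are counts that the Kallisto program estimated for each contig from the reads, and they are given below as CPM, which are counts scaled to a common library size after TMM normalization. Library totals ranged from 2076597 to 3992991 counts, so 1 count stands for between 0.242 and 0.511 CPM. The smallest total belongs to replicate 2 of 24 hpi. Contig lengths were not used, so percentiles, ratios and matches of level between contigs below refer to counts that are not divided by length, and of a ratio only its change between time points can be read. The labels give only replicate numbers, and it is the study's methods that describe the replicates as separate subclones. The p-values set differences between time points against the spread between these subclones. Since all are of a single isogenic strain, differences between genotypes are not covered.

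The TIE1/2 contig was a weakly covered contig that was lowest right after surgery and highest at 18 hpi. At 0 hpi it had 7.13, 5.33 and 7.63 CPM, from 20, 20 and 26 counts. At 6 hpi it had 10.6, 10.4 and 8.60 CPM (26, 24 and 22 counts). The 3 libraries of 6 hpi thus all lay above those of 0 hpi, as in 15.5% of the tested contigs, at nearly the same raw counts. The library totals were between 2397316 and 2693477 at 6 hpi, against 2949021 to 3992991 at 0 hpi. At 18 hpi it had 15.2, 15.9 and 20.6 CPM (45, 64 and 66 counts), and at 24 hpi 14.7, 10.7 and 14.1 CPM (61, 21 and 53 counts). The means were 6.70 ± 1.21, 9.87 ± 1.10, 17.2 ± 2.94 and 13.2 ± 2.16 CPM at 0, 6, 18 and 24 hpi (SD, n = 3 each). Every library of 18 hpi was above all libraries of the other 3 time points. The share of tested contigs for which this holds jointly was not computed. Taken singly, it was 16.5% against 0 hpi, 14.3% against 6 hpi and 5.51% against 24 hpi. Among the tested contigs ordered by mean CPM, the contig stood at percentiles 25.6, 39.9, 61.3 and 51.1 over the 4 time points in order.

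The Sox7/17/18 contig followed the same order of time points at a higher count. It had 36.0, 29.1 and 37.6 CPM at 0 hpi, from 101, 109 and 128 counts, and 36.5, 52.2 and 47.7 CPM at 6 hpi (90, 120 and 122 counts). These groups overlapped, since replicate 1 of 6 hpi was below replicate 3 of 0 hpi. At 18 hpi it had 72.7, 74.9 and 84.0 CPM (215, 302 and 269 counts), above every library of 0 and 6 hpi. Taken singly, the same was found in 16.5% of the tested contigs against 0 hpi and in 14.3% against 6 hpi. At 24 hpi it had 70.1, 50.6 and 78.7 CPM (290, 99 and 295 counts), where replicate 2 fell inside the range of 6 hpi. The means were 34.2 ± 4.52, 45.5 ± 8.07, 77.2 ± 5.98 and 66.5 ± 14.4 CPM at 0, 6, 18 and 24 hpi (SD, n = 3 each). Its percentiles among the tested contigs were 81, 86.8, 94.8 and 92.9 in the same order.

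**Figure D1:**
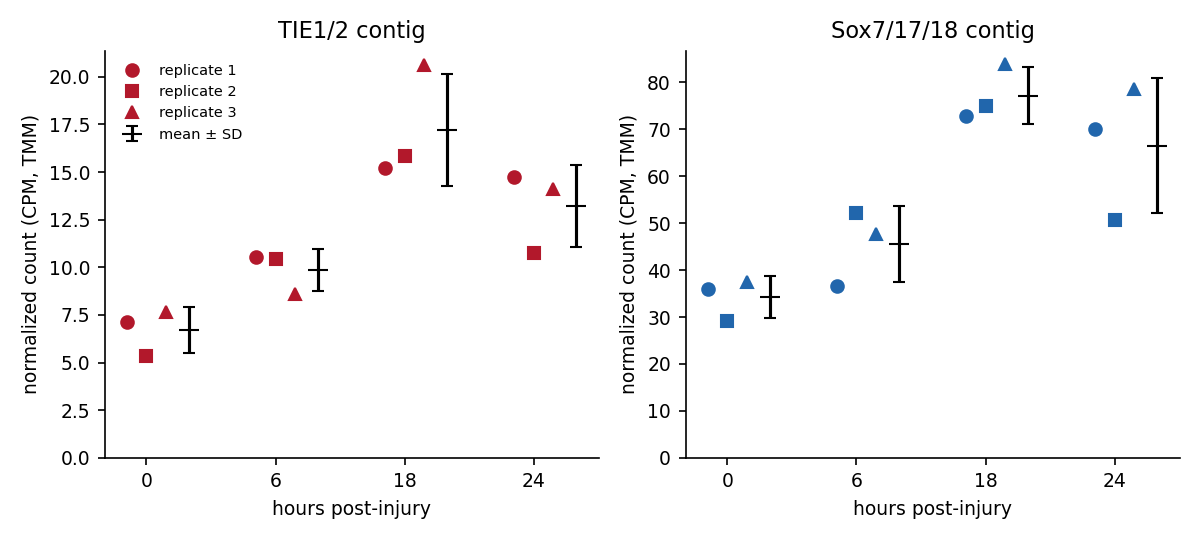
Normalized counts (CPM, vertical axes from 0) of the TIE1/2 contig (left) and the Sox7/17/18 contig (right) in colonies frozen at 0, 6, 18 and 24 hpi, with a point for each library and the mean ± SD of 3 libraries beside them. Both contigs are lowest at 0 hpi and highest at 18 hpi, and replicate 2 is the lowest library of 24 hpi in both.

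Differences were tested by edgeR's quasi-likelihood test in a single fit of all 12 libraries, with Benjamini-Hochberg adjustment over all tested contigs. A contig was called when the adjusted p was under 0.05 and the absolute log2 fold change above 1. The study named both contigs from groups of contigs that increase after surgery, so these tests do not give evidence independent of that choice. Both contigs rose at 18 hpi against 0 hpi, a comparison in which 2.93% of the tested contigs were called higher. TIE1/2 was 2.57-fold higher (95% interval from 1.76 to 3.76), with a log2 fold change of 1.36 ± 0.26 (SE, adjusted p = 0.00143 by edgeR). Sox7/17/18 was 2.26-fold higher (95% interval from 1.69 to 3.02), with a log2 fold change of 1.17 ± 0.20 (SE, adjusted p = 0.000507 by edgeR). These 2 calls held with each library left out in turn, with a lowest log2 fold change of 1.22 for TIE1/2 and 1.07 for Sox7/17/18. In both contigs the lowest library of 18 hpi was above the highest of 0 hpi, as in 16.5% of the tested contigs.

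At 24 against 0 hpi both contigs stood at the fold threshold. TIE1/2 was 2.00-fold higher (95% interval from 1.36 to 2.94, adjusted p = 0.0157 by edgeR) and was called, as were 3.54% of the tested contigs in this direction. Sox7/17/18 was 1.96-fold higher (95% interval from 1.46 to 2.61), which passed on the adjusted p (0.00263 by edgeR), as did 6.12% of the tested contigs in this direction, but stayed under the threshold on the fold. In both contigs the lowest library of 24 hpi was above the highest of 0 hpi, as in 13% of the tested contigs. The TIE1/2 call was lost without replicate 2 of 0 hpi (log2 fold change 0.85) or replicate 1 (0.92) or replicate 3 (0.99) of 24 hpi, and with DESeq2 (0.998). Sox7/17/18 gained a call without replicate 1 (1.04) or replicate 3 (1.07) of 0 hpi or without replicate 2 of 24 hpi (1.14).

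At 6 against 0 hpi neither contig passed the test, in a comparison in which 4.63% of the tested contigs were called higher. TIE1/2 had a log2 fold change of 0.56 (95% interval from -0.02 to 1.14, adjusted p = 0.212 by edgeR) and Sox7/17/18 of 0.41 (95% interval from -0.01 to 0.84, adjusted p = 0.211 by edgeR). Both intervals reach from just under 0 to changes near the estimates at 24 hpi. All 3 libraries of 6 hpi were above those of 0 hpi for TIE1/2, as for 15.5% of the tested contigs.

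Between 6 and 18 hpi the increase was of the same order in both. Sox7/17/18 was 1.70-fold higher at 18 than at 6 hpi (95% interval from 1.27 to 2.26, adjusted p = 0.0207 by edgeR), which passed on the adjusted p, as did 2.63% of the tested contigs, but not on the fold. TIE1/2 was 1.74-fold higher (95% interval from 1.20 to 2.54) and missed the threshold on the adjusted p (0.0613 by edgeR). Either result turned on a single library. Leaving out replicate 1 or 3 of 6 hpi gave Sox7/17/18 an adjusted p of 0.0881 or 0.0522 by edgeR, and leaving out replicate 2 or 3 of 18 hpi gave 0.0521 or 0.0767, while TIE1/2 reached 0.0497 when replicate 2 of 24 hpi was left out. In this comparison 1.6% of the tested contigs were called higher. All libraries of 18 hpi were above those of 6 hpi in both contigs, as in 14.3% of the tested contigs.

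At 24 against 18 hpi neither contig passed the test. The log2 fold change at 24 against 18 hpi was -0.36 for TIE1/2 (95% interval from -0.88 to 0.15, adjusted p = 0.852 by edgeR) and -0.21 for Sox7/17/18 (95% interval from -0.61 to 0.20, adjusted p = 0.912 by edgeR). Without replicate 2 of 24 hpi the value of Sox7/17/18 was -0.05, and that of TIE1/2 was -0.25, while without replicate 3 of 18 hpi that of TIE1/2 was -0.21. Of the tested contigs 0.00319% were called lower in this comparison. All 3 libraries of 24 hpi were below those of 18 hpi for TIE1/2, as for 5.51% of the tested contigs, while those of Sox7/17/18 overlapped. Against 6 hpi the level at 24 hpi was 1.36-fold higher for TIE1/2 (adjusted p = 0.368 by edgeR) and 1.47-fold higher for Sox7/17/18 (adjusted p = 0.099 by edgeR), where 2.01% of the tested contigs were called higher. All libraries of 24 hpi were above those of 6 hpi for TIE1/2, as for 10.3% of the tested contigs. In the order of levels, 0, 6, 24 and 18 hpi, no neighbouring pair of time points passed the test in either contig.

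**Figure D2:**
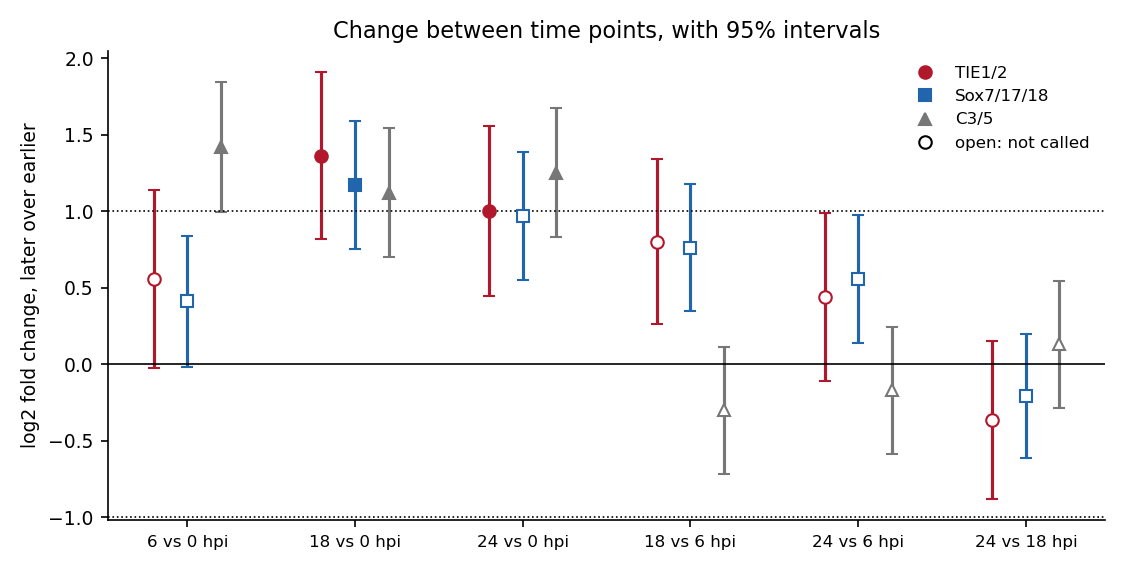
Log2 fold changes (vertical axis, later over earlier time point) with 95% intervals from edgeR's fit for the TIE1/2, Sox7/17/18 and C3/5 contigs in the 6 comparisons between time points. Filled symbols were called and dotted lines mark an absolute log2 fold change of 1. At 6 against 0 hpi only C3/5 is called, at 1.42, while at 18 against 6 hpi TIE1/2 and Sox7/17/18 lie at 0.80 and 0.76 and C3/5 at -0.30.

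The timing of both contigs was compared through the log2 ratio of their counts within each library, which does not depend on how libraries are scaled. The ratio of TIE1/2 to Sox7/17/18 counts was 19.8, 18.4 and 20.4% in the libraries of 0 hpi, 28.7, 20.1 and 18.0% in those of 6 hpi, 21.0, 21.2 and 24.5% in those of 18 hpi and 21.0, 21.2 and 18.0% in those of 24 hpi. It stayed between 18.0 and 24.5% in 11 of the 12 libraries, with replicate 1 of 6 hpi above the rest. No difference between time points was detected by an exact permutation test of the F statistic over all 369600 assignments of libraries to time points (p = 0.672, and 0.672 after Benjamini-Hochberg adjustment over 3 such ratios). The time point means differed by at most 0.18 on the log2 scale, and the largest difference against 0 hpi was 0.18 ± 0.09 (SE) at 18 hpi. There the 3 ratios did not overlap with those of 0 hpi (exact permutation test, two-sided, p = 0.1, the smallest that 3 against 3 libraries allow). The libraries of 6 hpi scattered most, with an SD of 0.35 on the log2 scale, against 0.08 at 0 hpi.

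For comparison the same ratios were formed with TRINITY_DN18533_c0_g2_i2.p1, the contig of the complement component C3/5, which the same set of trees names and which belongs to the central proteins of the complement cascade. Its level at 0, 6, 18 and 24 hpi was 381.9 ± 91.6, 1023 ± 24.0, 831.4 ± 104 and 910.3 ± 81.4 CPM (SD, n = 3 each), so that its mean was highest at 6 hpi. Neither later time point passed the test against 6 hpi. The log2 fold change of C3/5 was -0.30 at 18 hpi (adjusted p = 0.418 by edgeR) and -0.17 at 24 hpi (adjusted p = 0.698 by edgeR). The log2 ratio of TIE1/2 to C3/5 was -5.82 ± 0.18, -6.70 ± 0.19, -5.60 ± 0.14 and -6.12 ± 0.36 over the 4 time points in order (SD, n = 3 each). The time points differed (exact permutation test of the F statistic, p = 0.00208, adjusted p = 0.00624 over the 3 ratios). The log2 ratio of Sox7/17/18 to C3/5 was -3.46 ± 0.20, -4.51 ± 0.23, -3.42 ± 0.11 and -3.80 ± 0.45 at 0, 6, 18 and 24 hpi (SD, n = 3 each), and the time points differed as well (exact permutation test of the F statistic, p = 0.00961, adjusted p = 0.0144 over the 3 ratios). With time points permuted only within replicate numbers, a permutation test by random draws, not over all assignments, gave p = 0.0587 for the ratio of Sox7/17/18 to C3/5. In both ratios all 3 libraries of 6 hpi were below all libraries of 0 and 18 hpi, by 0.88 and 1.10 for TIE1/2 and by 1.04 and 1.08 for Sox7/17/18 on the log2 scale. C3/5 itself was called higher at 6 against 0 hpi (log2 fold change 1.42, adjusted p = 0.000122 by edgeR), as were 4.63% of the tested contigs. A contig without any change would therefore also have a lower ratio to C3/5 at 6 than at 0 hpi. The share of tested contigs with such a pattern of ratios was not computed.

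Expressed as a share of the log2 change seen at 18 hpi, the estimate at 6 hpi was 41.1% for TIE1/2, with a range from 34.0 to 47.5% when single libraries were left out. It was 35.0% for Sox7/17/18, with a range from 25.8 to 45.8%, and 126.7% for C3/5, with a range from 114.3 to 134.1%. The ranges of TIE1/2 and Sox7/17/18 overlapped, and both lay below that of C3/5. These ranges understate sampling error. The jackknife SD, an error estimate from the same fits, was 12.6 percentage points for TIE1/2, 15.9 for Sox7/17/18 and 15.6 for C3/5. At 6 against 0 hpi the intervals of the log2 fold change of TIE1/2 and Sox7/17/18 included 0. A share of 0 at 6 hpi is therefore not excluded for either contig. Differences between the shares were not tested.

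**Figure D3:**
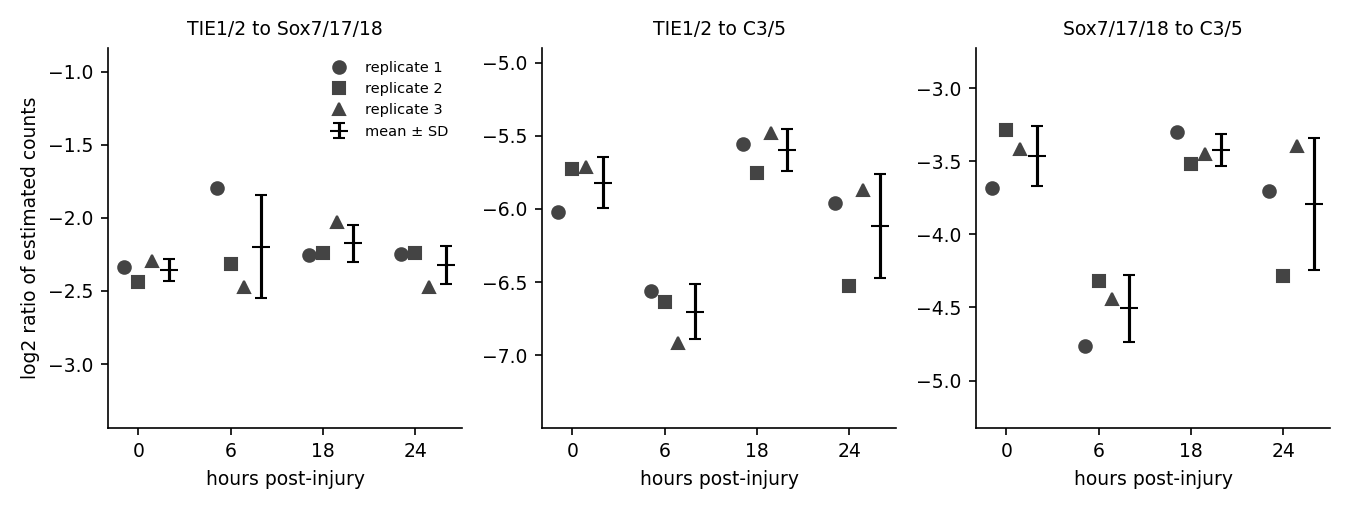
Log2 ratio of the estimated counts of 2 contigs within each library (vertical axes, each spanning the same range) in colonies frozen at 0, 6, 18 and 24 hpi, with the mean ± SD of 3 libraries beside the points. The ratio of TIE1/2 to Sox7/17/18 (left) keeps time point means between -2.36 and -2.17, whereas both ratios to C3/5 (middle and right) are lowest at 6 hpi, where the mean of C3/5 itself is highest.

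Likeness of whole profiles was measured as the root mean square difference over the 12 libraries between log2 CPM values (prior count 2) that were centred for each contig. Every tested contig with a mean of at least 20 counts per library and from another Trinity gene was set against each of the contigs. Of these 23789 contigs, the one nearest to TIE1/2 was Sox7/17/18, and the one nearest to Sox7/17/18 was TIE1/2, at a difference of 0.174. A contig without any change would have lain 0.51 from TIE1/2 and 0.49 from Sox7/17/18, and the median contig lay 0.618 and 0.604 away. The next nearest contigs were at 0.189 for TIE1/2 and 0.201 for Sox7/17/18, and 21 contigs lay within 0.25 of each. C3/5 ranked 2896 for TIE1/2, at 0.451, and 5141 for Sox7/17/18, at 0.491. The rank says nothing of shared control. The values share libraries and their scaling, and both contigs were named by the study from clusters of contigs that increase after surgery.

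The mutual first rank held with a prior count of 0.5 or 5, with library size as the only scaling and with contigs down to a mean of 10 counts. When single libraries were left out, the rank of Sox7/17/18 for TIE1/2 was between 1 and 7 and that of TIE1/2 for Sox7/17/18 between 1 and 3. The rank of 7 was without replicate 2 of 0 hpi, and the rank of 3 without replicate 2 of 6 hpi. With only the 4 time point means in place of the 12 libraries the ranks were 10 and 18, so the first rank rested also on how the replicates of a time point differed. Profiles of equal likeness but turned round were also found. TRINITY_DN12498_c1_g2_i1.p1, the contig most opposed to TIE1/2, mirrored it to within 0.139, and had 845.9 ± 104 CPM at 18 hpi, against 1839 ± 225 CPM at 0 hpi (SD, n = 3 each). TRINITY_DN15948_c9_g4_i1.p1, the contig most opposed to Sox7/17/18, mirrored it to within 0.168, and had 17.9 ± 1.47 CPM at 18 hpi, against 38.9 ± 3.76 CPM at 0 hpi (SD, n = 3 each). Their log2 fold changes at 18 against 0 hpi were -1.12 each (adjusted p = 0.00163 and 0.000281 by edgeR). Neither identifier is paired with a gene name in the sources used here. Within 0.25 there were 89 opposed contigs for TIE1/2 and 28 for Sox7/17/18, more than the 21 like ones of each.

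**Figure D4:**
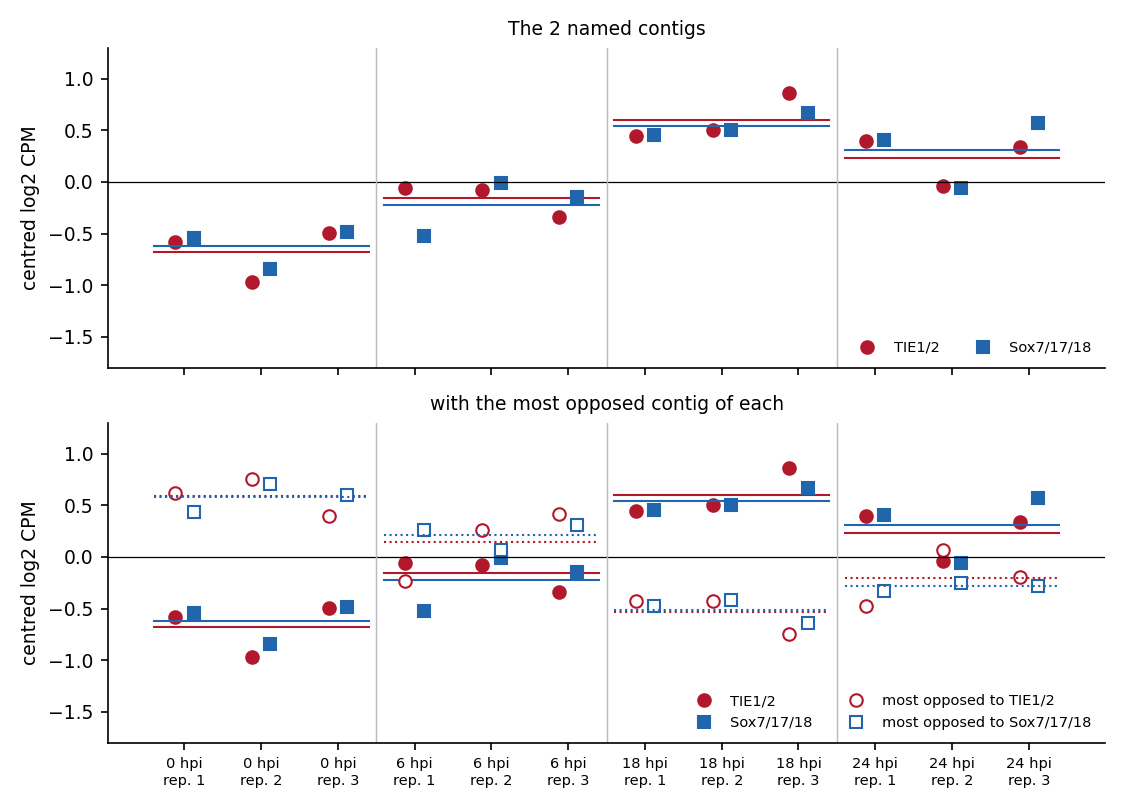
Log2 CPM of each library, centred over the 12 libraries, for the TIE1/2 and Sox7/17/18 contigs (both panels, filled) and for the contig most opposed to each (lower panel, open), with horizontal lines at the time point means. The filled points nearly coincide in most libraries, with the widest gap in replicate 1 of 6 hpi, and the open points run the other way.

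Each contig was then placed among the tested contigs of similar level at 0 hpi, those whose mean log2 CPM there lay within 0.25 of its own. TIE1/2 had 3644 such contigs. At 6 against 0 hpi 17.7% of them had a higher log2 fold change than TIE1/2, at 18 against 0 hpi 1.84% (67 contigs) and at 24 against 0 hpi 5.16%. Of the 67 contigs with a higher change at 18 hpi, 59 were called. The middle 90% of these contigs ran from -1.59 to 0.95 at 18 against 0 hpi, so TIE1/2, at 1.36, was beyond their upper end. With changes of either sign counted, 8.29% were as large or larger, since the lower tail was longer. Since the study named both contigs from groups of contigs that increase after surgery, these ranks are not evidence independent of that choice.

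Sox7/17/18 had 2613 contigs of similar level at 0 hpi. A higher log2 fold change than its own was found for 16.6% of them at 6 hpi, for 0.995% (26 contigs) at 18 hpi and for 2.45% at 24 hpi, each against 0 hpi. Of the contigs of this level 1.45% were called higher and 9.57% lower at 18 hpi, whereas 3.4% and 4.03% were at the level of TIE1/2. With the level matched over all 12 libraries, the share was 1.98% at 18 hpi and 4.46% at 24 hpi. With changes of either sign counted, 9.34% were as large or larger at 18 hpi. The difference in rank between the 2 contigs was not tested. Precision was not the same at both levels. The median SE of the log2 fold change at 18 against 0 hpi was 0.38 among contigs of the level of TIE1/2 and 0.21 among those of the level of Sox7/17/18, against 0.26 and 0.20 for the contigs themselves.

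**Figure D5:**
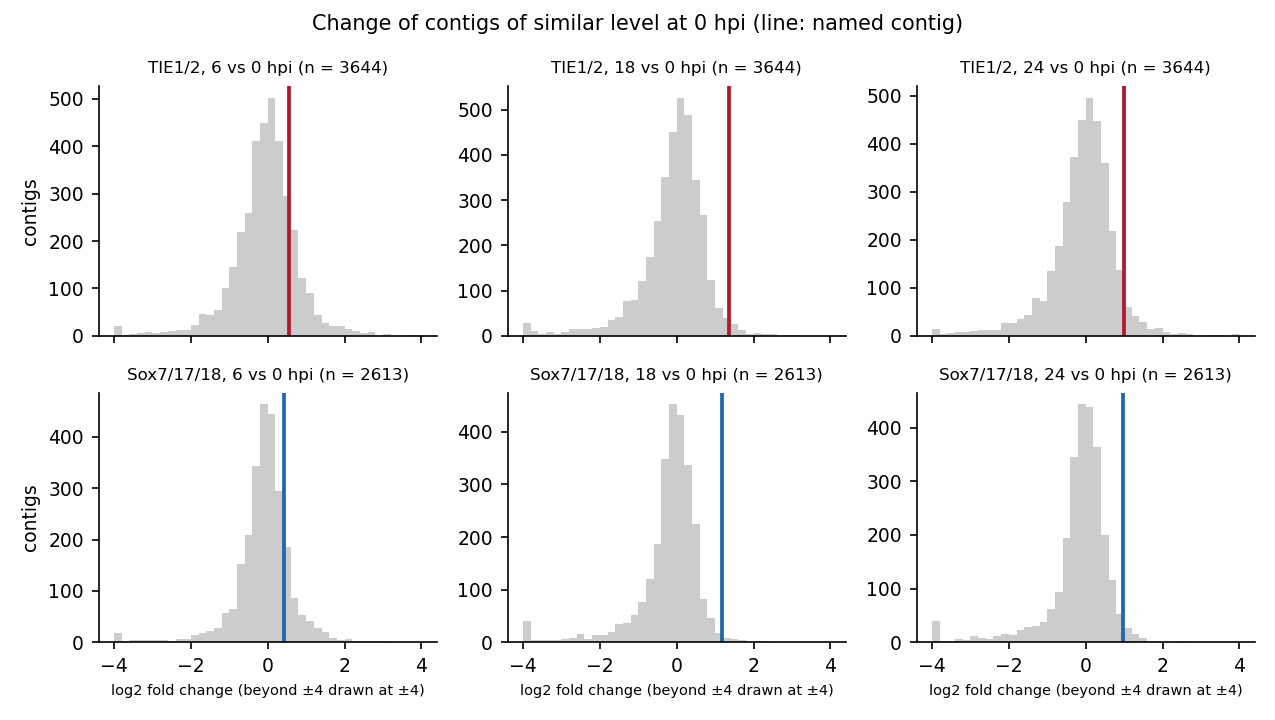
Histograms of the log2 fold change (horizontal axes) at 6, 18 and 24 against 0 hpi over the 3644 contigs of similar level to TIE1/2 at 0 hpi (upper row) and the 2613 of similar level to Sox7/17/18 (lower row), with a line at the named contig. The line stands inside the bulk at 6 hpi, where 17.7% and 16.6% of contigs are higher, and in the upper tail at 18 hpi, where 1.84% and 0.995% are. Both named contigs come from groups that increase after surgery, so this place is not independent of that choice.

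Trinity numbers contigs by the cluster of reads they were built from, so that contigs of a cluster can be fragments of the same transcript, variants of it or relatives with shared sequence. The estimates of TIE1/2 were whole numbers in all 12 libraries, so they show no division of reads with another contig. Sox7/17/18 had fractions in 11 libraries, and in all 11 these added up to whole numbers (tolerance 0.01) with those of TRINITY_DN16425_c0_g1_i1.p1, another form of the same Trinity gene. That form took between 0 and 4.73% of the counts of the gene in a library, with 22 counts over the 3 libraries of 18 hpi and 9 over those of 0 hpi, too few to be tested. With counts summed over both forms, the log2 fold change at 18 against 0 hpi was 1.18, close to the 1.17 of Sox7/17/18 alone. C3/5, the contig used for comparison, had fractions in 10 libraries. In all 10 these added up to whole numbers with those of a contig from another read cluster. The effect of this division on the ratios to C3/5 was not tested.

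The read cluster of TIE1/2 held 4 further contigs, and 1 of them was called higher at 18 against 0 hpi. Of all tested contigs 2.93% were called higher in this comparison. TRINITY_DN13206_c4_g3_i1.p1 had 9.81, 10.4 and 9.99 CPM at 18 hpi, against 4.28, 5.87 and 2.05 CPM at 0 hpi, with a log2 fold change of 1.29 ± 0.36 (SE, adjusted p = 0.0219 by edgeR). At 24 against 0 hpi its log2 fold change was 0.93 (adjusted p = 0.109 by edgeR), and it was not called. The other 3 had log2 fold changes at 18 against 0 hpi of 0.26 (adjusted p = 0.7 by edgeR), 0.48 (adjusted p = 0.587 by edgeR) and 1.21 (adjusted p = 0.139 by edgeR). The last came from 46 counts in all at 18 hpi and 19 at 0 hpi. All 4 were less like TIE1/2 in profile than Sox7/17/18 was, with differences from 0.438 to 0.560. They had between 9.75 and 32.6 counts per library on average, and the part of counting error in these differences was not tested.

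The read cluster of Sox7/17/18 held 2 further contigs from other Trinity genes. TRINITY_DN16425_c0_g7_i1.p1 had 42.3, 45.4 and 48.7 CPM at 18 hpi, against 31.0, 24.5 and 30.5 CPM at 0 hpi. Its log2 fold change of 0.67 ± 0.19 (SE, adjusted p = 0.0272 by edgeR) passed on the adjusted p, as did 5.28% of the tested contigs in this direction, but not on the fold, and at 24 against 0 hpi it was 0.71 ± 0.19 (SE, adjusted p = 0.0192 by edgeR). With a difference of 0.256 it ranked 30 of 23789 in likeness to Sox7/17/18. The other contig, TRINITY_DN16425_c0_g4_i1.p1, had a log2 fold change of 0.70 at 18 against 0 hpi (adjusted p = 0.162 by edgeR). The files do not show whether these contigs belong to the same genes as the named ones.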

How the data were processed

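The authors removed ribosomal reads, trimmed with Trimmomatic 0.30, assembled with Trinity, predicted reading frames, collapsed similar transcripts and assigned reads with Kallisto 0.43.1, without a genome. The deposited values are the estimated counts of Kallisto per contig and library, without normalization. Reads that fit several contigs are divided between them.

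Estimated counts were rounded and analysed with edgeR 4.0.16 in R 4.3.3 (TMM, filterByExpr, robust quasi-likelihood fit of all 12 libraries without a covariate, Benjamini-Hochberg adjustment within each of the 6 comparisons). The filter removed 1178 contigs. The SE of a fold change was its size over the root of the F statistic, and intervals use the same error. Ratios used unrounded counts without a pseudocount. DESeq2 1.42.0 and limma 3.58.1 served as alternatives. Replicates of a time point differed by more than sampling noise (chi-square per degree of freedom at least 3.14). The fit was tested on simulated counts.

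Named contigs were the 2 members, C3/5, the nearest and the most opposed contig in profile of each member, and rows of their read clusters. The members, lists and tests were chosen with earlier results of these data known.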

Additional observations from a re-analysis of the deposited data

How the results depend on the processing

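No result turned its direction under any alternative. The TIE1/2 change at 24 against 0 hpi, called at a log2 fold change of 1.00, was not called with DESeq2's kind of size factors in edgeR (0.989), with DESeq2 (0.998) or with the replicate number as a block (0.989), and it ranged from 0.85 to 1.14 when single libraries were left out. For Sox7/17/18 at 24 against 0 hpi, the adjusted p alone (log2 fold change 0.97) or library size as the only scaling (1.03) gave a call, and the value ranged from 0.86 to 1.14 with single libraries left out. On the adjusted p alone Sox7/17/18 was also called at 18 against 6 hpi (0.76). With library size only, the median over all tested contigs moved, on the log2 scale, to 0.17 at 18 against 0 hpi and 0.14 at 18 against 6 hpi, and the adjusted p of TIE1/2 at 18 against 6 hpi was 0.0358. With the replicate block, the permutation test by random draws gave p = 0.0587 for the ratio of Sox7/17/18 to C3/5. The share of contigs of similar level with a higher change than Sox7/17/18 at 18 against 0 hpi was 0.6% among the 500 nearest contigs and 1.98% when the level was matched over all 12 libraries. Over all tested contigs, the correlation of same-numbered deviations from the time point means ranged from -0.139 to 0.0918 over 18 pairs. The replicate numbers thus showed no pairing over the contigs as a whole, which does not exclude a pairing limited to few contigs. The block ended no other call. The alternatives for the likeness of profiles were chosen after seeing the data. With profiles scaled to unit length, the contigs ranked 2 and 3 for each other. Depth limits the precision for TIE1/2, which had 20 to 26 counts per library at 0 hpi.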

Other observations

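The spread between replicates was set against the spread that counting alone would give. For TIE1/2 the coefficient of variation between replicates was 18.0, 11.2, 17.1 and 16.3% at 0, 6, 18 and 24 hpi, and counting error alone gives 21.5, 20.4, 13.2 and 15.7%. For Sox7/17/18 it was 13.2, 17.7, 7.74 and 21.6%, against 9.49, 9.52, 6.23 and 6.99% for counting error. With 3 libraries per time point these coefficients are imprecise, and the comparison was not tested. Within their time points, the 2 contigs deviated from the mean in the same direction in 10 of the 12 libraries, the exceptions being replicates 1 and 3 of 6 hpi. The 3 deviations of a time point sum to 0 and both contigs share the scaling of each library, so the 12 signs are not independent. The same count was not made for other pairs of contigs, and it was not tested. In replicate 2 of 24 hpi the log2 deviation was -0.27 for TIE1/2 and -0.36 for Sox7/17/18, and in replicate 2 of 0 hpi it was -0.28 for TIE1/2 and -0.22 for Sox7/17/18.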
